A study of Mus musculus with 20 samples.

Results

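Hearts with a heart-muscle deletion of Wnt5a were compared 2 weeks after transverse aortic constriction (TAC) with hearts of the same genotype 2 weeks after a sham operation. TAC is a surgical band around the aorta that makes the left ventricle pump against a raised pressure, and the sham operation omits the band. Members were taken by their labels: 4 of the 20 hearts sequenced, namely TAC hearts 13 and 31 and sham hearts 14 and 15, where the number is the one in each heart's label. Of 23284 genes in the expression tables, 12589 had a mean of at least 0.5 FPKM (fragments per kilobase of transcript and unit of sequencing depth, a level per transcript length) over the 20 hearts and were tested. The comparison asks which messenger RNAs differ between loaded and unloaded hearts when cardiac myocytes have had their floxed Wnt5a exposed to Cre, and the series title sets this in mechanical signalling through YAP.

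The mice were C57BL/6. In the conditional knockout (CKO) all 4 hearts carried floxed Wnt5a together with the Myh6-Cre/Esr 1 transgene, a Cre recombinase fused to part of the oestrogen receptor, driven in heart muscle and active after tamoxifen; other cell types of the heart keep an intact Wnt5a. The hearts set beside them were 2-week controls with floxed Wnt5a and no Cre transgene (TAC hearts 11 and 32, sham hearts 12 and 16) and CKO hearts at 4 weeks (TAC hearts 3 and 41, sham hearts 4 and 8), so that the floxed alleles were shared by every group while the transgene was not. A difference between genotypes therefore cannot tell loss of Wnt5a apart from an effect of the Cre transgene with tamoxifen. The series also holds CKO and control hearts labelled at the end of tamoxifen treatment, which served here only for the shared estimate of spread and the level filter. Age, sex and tamoxifen dose are not given in the labels used here. Each group is 2 hearts, named as separate samples and nothing more, so a p-value measures the spread between such hearts.

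Wnt5a is a secreted ligand that in many tissues signals without beta-catenin, through Frizzled and Ror receptors, to the cytoskeleton and to the co-activators YAP and TAZ of the Hippo pathway, which act with TEAD transcription factors on genes of growth and matrix. A pressure-loaded mouse heart is known to re-express foetal muscle genes, to lay down collagen through activated fibroblasts, and to lower genes of fatty acid oxidation. Dividing cells in such a heart are mostly fibroblasts, endothelial cells and macrophages, since adult cardiac myocytes seldom divide.

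The labelled tissue was checked against the defining transcripts of heart muscle. In the 4 hearts Myh6 ranged from 2323 to 4925 FPKM, Actc1 from 12727 to 15799 FPKM, Tnnt2 from 7324 to 11885 FPKM and Ryr2 from 67.7 to 133 FPKM. Sham heart 14 stood apart in atrial transcripts: Myl7 was 372 FPKM there and 0 in the other 3, and Sln was 109 FPKM there and 0 in the other 3. Over 14 listed atrial markers, of which 13 were tested, the summed level was 1517 FPKM in heart 14, 711 FPKM in the other sham heart, and 662 and 583 FPKM in the TAC hearts. Each heart's relative depth, read from the steps between its lowest values, was 1.07 and 1.12 in TAC hearts 13 and 31 and 1.00 and 0.908 in sham hearts 14 and 15. The parts of atrial tissue and of depth in the results were not tested.

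Wnt5a itself was low in all of these hearts. It stood at 1.46 and 1.04 FPKM in the CKO TAC hearts and at 1.76 and 2.11 FPKM in the CKO sham hearts; the groups did not overlap, but the log2 difference of -0.49 ± 0.21 (SE) did not pass the test (limma, Benjamini-Hochberg adjusted p = 0.118). With quantile normalization it passed (-0.6955, adjusted p = 0.046). Control hearts held 1.76 and 1.58 FPKM after TAC and 2.55 and 3.06 FPKM after sham, and CKO hearts at 4 weeks 1.57 and 0.853 FPKM after TAC and 2.14 and 2.02 FPKM after sham. Wnt5a (chr14:28504750-28527448, plus strand, mm10) was read in every CKO heart, whole-heart RNA does not assign it to a cell type, and the floxed part of the gene is not named in the labels. Esr1, whose values in CKO hearts include any reads from the oestrogen receptor part of the transgene, was 197 and 395 FPKM in the TAC hearts and 548 and 906 FPKM in the sham hearts of the CKO, against 0.228 and 0.185 FPKM in control TAC and 0.307 and 0.339 FPKM in control sham hearts. It was high in all 4 CKO hearts, and within them lower after TAC, with a log2 difference of -1.33 (adjusted p = 0.0079); without heart 13 the difference was -0.83 (adjusted p = 0.0639) and without heart 15 -0.97 (adjusted p = 0.114).

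After TAC 1265 genes rose (10.05% of those tested) and 1159 fell (9.21%), 2424 in all (19.3%), by limma at an adjusted p under 0.05. The rises were led by mitosis genes (Ube2c, Fam64a, Top2a), the periostin gene Postn and the skeletal actin gene Acta1. Rises were larger than falls: 380 rises and 92 falls were at least 2-fold on the log2(FPKM + 0.5) scale, and 47 and 6 at least 4-fold. The median log2 difference was 0.80 over the rises and -0.52 over the falls, and -0.0037 over all genes tested. The TAC and sham hearts did not overlap for 30.5% of genes tested in the higher direction and 30.8% in the lower. Heart 31 lay further from the sham hearts than heart 13 did, being the higher of both TAC hearts in 1010 of the 1265 rises and the lower in 947 of the 1159 falls. The count of calls rests on a spread shared by all 10 groups: a fit of the 4 hearts alone called 15 genes, 12 higher and 3 lower. It also rests on 2 of the hearts, since 465 genes were called without heart 31 (256 higher, 209 lower) and 605 without heart 15 (348 higher, 257 lower).

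**Figure D1:**
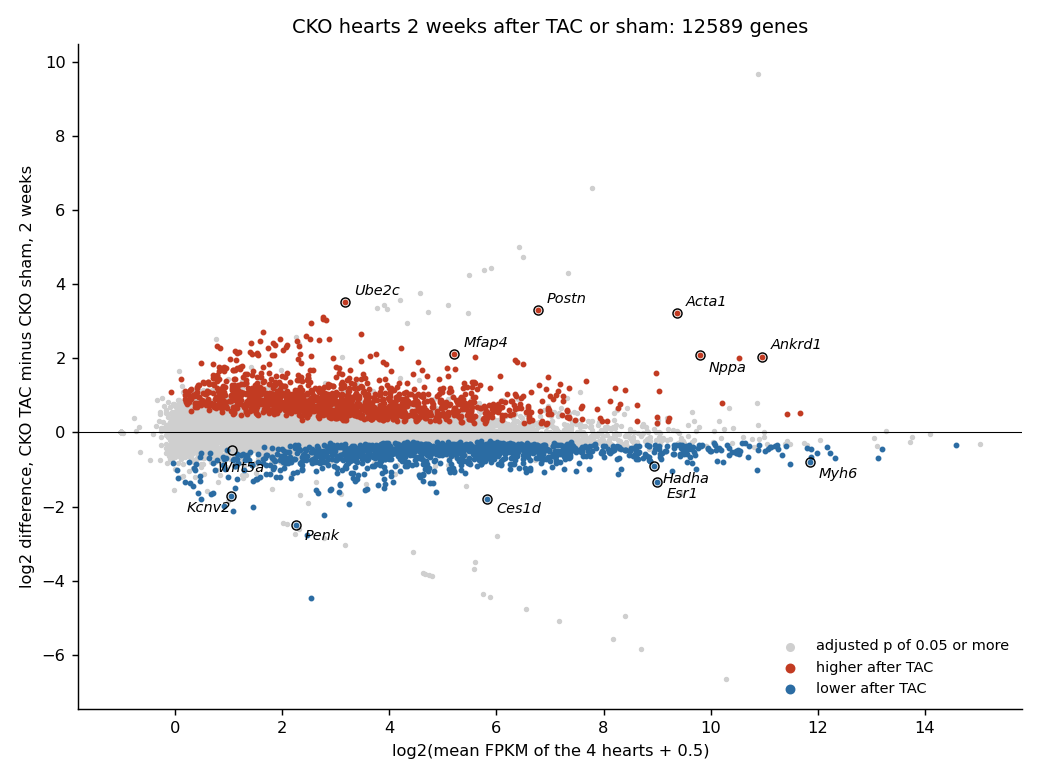
The 12589 genes tested, with the log2 mean level over the 4 CKO hearts at 2 weeks on the horizontal axis and the log2 difference of TAC against sham on the vertical axis; each point is a gene, red where it rose, blue where it fell and grey where it did not pass limma at an adjusted p under 0.05. The 1265 rises reach further from 0 than the 1159 falls.

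Genes that mark an overloaded ventricle rose in part. Of 23 listed natriuretic, foetal and overload genes 22 were tested, 11 rose and 1 fell (all genes: 10.05% and 9.21%), with a median log2 difference of 0.62. Ankrd1 (chr19:36111961-36120099, minus strand), which encodes a titin-bound nuclear cofactor of strained muscle, was at 3487 and 2837 FPKM in TAC hearts 13 and 31 and at 1036 and 558 FPKM in sham hearts 14 and 15. Xirp2, an actin-binding protein of the intercalated disc, was at 116 and 123 FPKM after TAC and 65.0 and 56.5 FPKM after sham. For both genes the TAC hearts lay well above the sham hearts, the log2 differences being 2.05 ± 0.27 (adjusted p = 0.000575) and 0.98 ± 0.18 (adjusted p = 0.00277), and both kept their call whichever heart was left out.

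Acta1, the skeletal alpha-actin that foetal hearts use, stood at 841 and 1518 FPKM after TAC and 214 and 68.0 FPKM after sham. Nppb, the gene of brain natriuretic peptide, stood at 2052 and 2633 FPKM after TAC and 808 and 406 FPKM after sham, and Nppa, the gene of atrial natriuretic peptide, at 1489 and 1278 FPKM after TAC and 625 and 169.9 FPKM after sham. In all 3 the sham hearts differed widely from each other, but neither reached a TAC heart. Acta1 rose by 3.22 ± 0.63 (adjusted p = 0.00426), Nppb by 2.02 ± 0.39 (adjusted p = 0.00414) and Nppa by 2.08 ± 0.55 (adjusted p = 0.0186) on the log2 scale. Each of these calls depended on single hearts: without heart 31 Acta1 was 2.79 (adjusted p = 0.0646) and Nppb 1.84 (adjusted p = 0.0592), without heart 15 they were 2.40 (adjusted p = 0.0705) and 1.52 (adjusted p = 0.0691). Nppa was 1.97 without heart 13 (adjusted p = 0.0698), 2.19 without heart 31 (adjusted p = 0.0976) and 1.14 without heart 15 (adjusted p = 0.241). Myh7, the slow myosin heavy chain that is a textbook marker of overload, was 58.9 and 52.8 FPKM after TAC and 143 and 17.8 FPKM after sham; the groups overlapped and the log2 difference was 0.14 (adjusted p = 0.956). Over the whole list 2 members were called higher without heart 31 and 4 without heart 15.

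**Figure D2:**
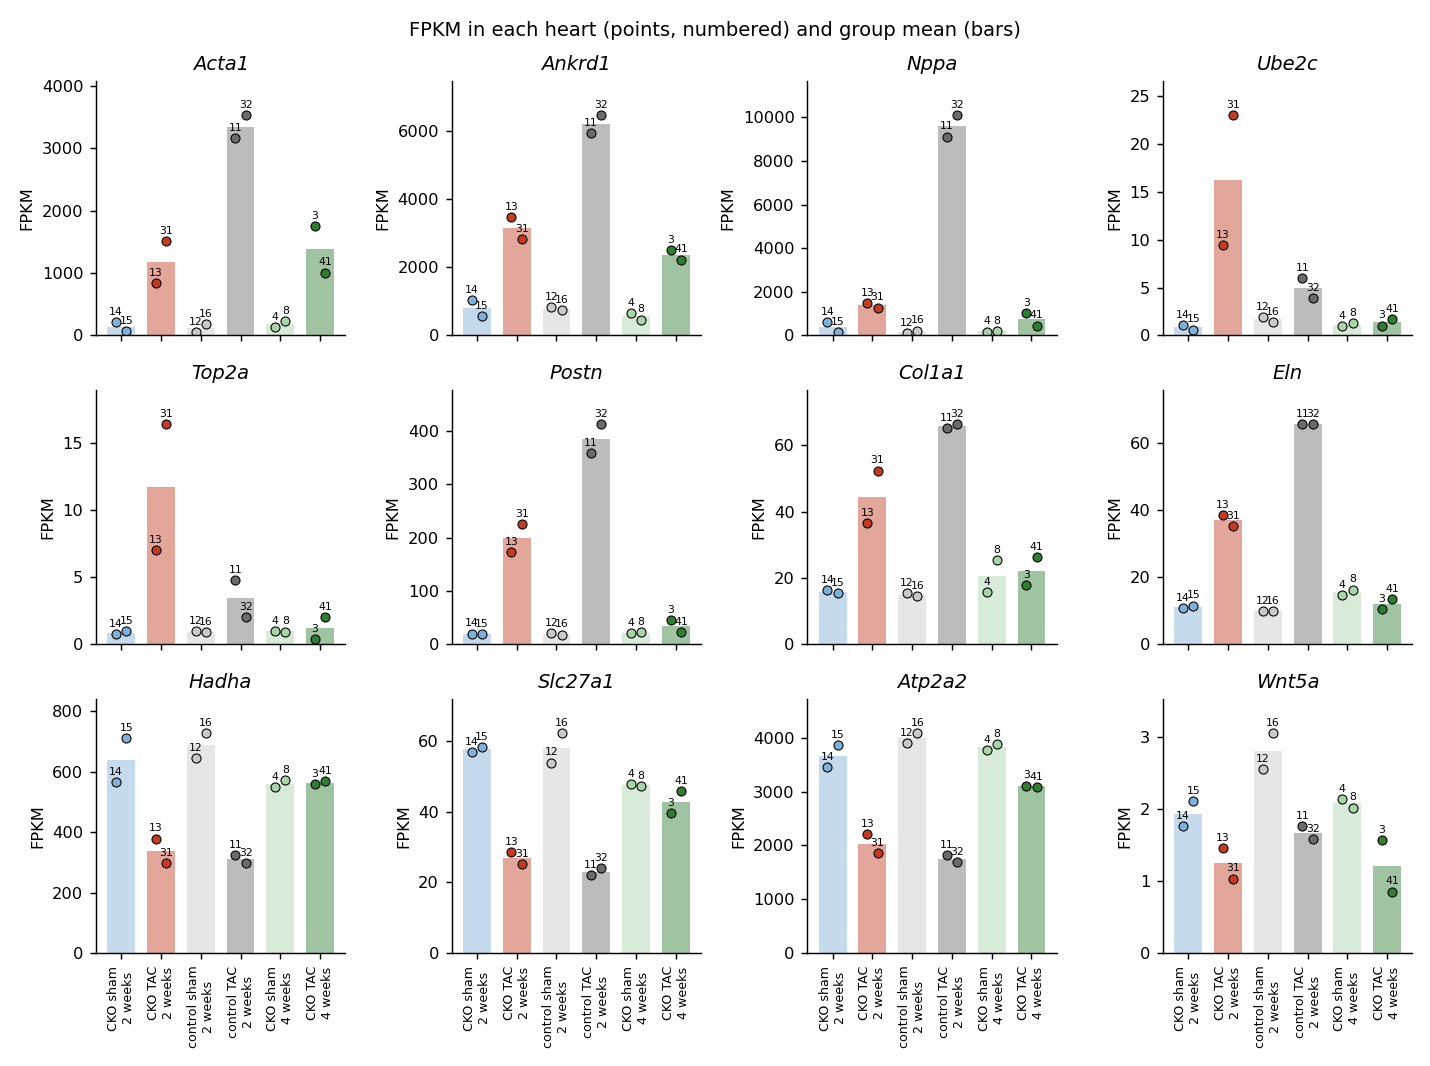
FPKM of 12 genes in 12 hearts, with 1 panel a gene, the 6 groups (control and CKO at 2 weeks, CKO at 4 weeks, sham and TAC) along the horizontal axis and FPKM on the vertical axis; bars are group means of 2 hearts and points are hearts with their numbers. Ube2c and Top2a are highest in CKO TAC hearts at 2 weeks, while Acta1 and Nppa are highest in control TAC hearts.

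The promoters of these genes are shown because MCAT (CATTCC) is the site bound by TEAD factors, the partners of YAP, and the CArG box, CC followed by 6 A or T bases and GG, is the site of serum response factor. The 150 bases before the start are from RefSeq on GRCm38.p6, read in the direction of the gene, with MCAT and CArG letters on either strand in capitals.
Acta1, chr8:123894776-123894925, minus strand: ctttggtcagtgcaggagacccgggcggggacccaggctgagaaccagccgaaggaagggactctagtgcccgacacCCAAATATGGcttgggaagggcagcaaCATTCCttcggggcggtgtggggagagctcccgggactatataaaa
Ankrd1, chr19:36119845-36119994, minus strand: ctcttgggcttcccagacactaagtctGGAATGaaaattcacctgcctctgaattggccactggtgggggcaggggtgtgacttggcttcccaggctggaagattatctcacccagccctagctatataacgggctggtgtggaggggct
Distances are from the RefSeq start. In Acta1 a CArG box began 73 bases and an MCAT match 46 bases before that start, while Ankrd1 held an MCAT match on the other strand 123 bases before its own. The GENCODE span given above for Ankrd1 begins further upstream, so the bases printed for it lie inside that span. In the window from 250 bases before to 50 after the start, 7 of 18 overload genes found in the table held MCAT on either strand (38.9%) and 2 held a CArG box (11.1%). Of the 11 that rose 4 held MCAT (36.4%) and 2 a CArG box (18.2%). The same letters stood in 14.6% and 1.64% of the 9922 tested genes found there. A match is a run of letters and not a measured binding site.

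Cell division genes had the highest list median. Of 71 listed mitosis genes 49 passed the level filter, 42 rose and 1 fell, with a median log2 difference of 2.095. Since a gene silent in sham hearts could pass that filter through its TAC level, the 38 members whose 2 sham hearts alone had a mean of at least 0.5 FPKM are also given: 31 rose and 1 fell, with a median of 2.09. Counts over passing members are a description. Under a filter of 3 FPKM, few of these weakly expressed genes remained, and the median of those was 0.64, with 2 higher and 1 lower.

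Ube2c (chr2:164769898-164778822, plus strand), a ubiquitin-conjugating enzyme of the anaphase-promoting complex, was at 9.42 and 23.0 FPKM in TAC hearts 13 and 31 and at 1.09 and 0.605 FPKM in sham hearts 14 and 15. Top2a, the topoisomerase that untangles replicated chromosomes, was at 7.01 and 16.4 FPKM after TAC and at 0.737 and 0.960 FPKM after sham. Cep55, which acts in the final abscission of daughter cells, was at 3.67 and 6.16 FPKM after TAC and 0.424 and 0.201 FPKM after sham. Sham hearts lay near or under 1 FPKM for all 3 genes, heart 13 several times higher and heart 31 higher still. The log2 differences were 3.52 ± 0.42 for Ube2c (adjusted p = 0.000345), 3.07 ± 0.47 for Top2a (adjusted p = 0.00108) and 2.71 ± 0.25 for Cep55 (adjusted p = 4.5e-05), and no heart left out ended a call. The sham mean of Cep55 was under the 0.5 FPKM filter, so it passed through hearts where it was high, and each call on it carries that limit.

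The TAC hearts ranked alike through the steps of mitosis. For entry, Cdk1, the mitotic kinase, stood at 7.07 and 11.5 FPKM after TAC and 0.945 and 1.37 FPKM after sham (log2 difference 2.53 ± 0.34, adjusted p = 0.000623), and its cyclin Ccnb2 at 6.54 and 13.2 FPKM after TAC and 0.792 and 0.765 FPKM after sham (2.94 ± 0.46, adjusted p = 0.00128). For the spindle checkpoint, Bub1b stood at 3.14 and 5.36 FPKM after TAC and 0.496 and 0.589 FPKM after sham (2.15 ± 0.26, adjusted p = 0.000316). Heart 31 was the highest and the sham hearts the lowest in each. For anaphase, Cdc20, the activator of the anaphase-promoting complex, was at 5.08 and 10.4 FPKM after TAC and 1.00 and 0.832 FPKM after sham (2.46 ± 0.33, adjusted p = 0.000575). For cytokinesis, Prc1, which bundles the midzone of the spindle, was at 5.97 and 15.4 FPKM after TAC and 1.27 and 1.30 FPKM after sham (2.50, adjusted p = 0.00131), and Anln, which links actin to the cleavage furrow, at 2.54 and 6.01 FPKM after TAC and 0.405 and 0.699 FPKM after sham (2.095, adjusted p = 0.00197). Mki67, the antigen used to stain cycling cells, was at 5.85 and 12.1 FPKM after TAC and 0.963 and 0.989 FPKM after sham (2.60 ± 0.33, adjusted p = 0.000398). The fall was that of Pttg1, securin, picked out here for its direction: it stood at 138 and 119 FPKM after TAC and 179 and 206 FPKM after sham (-0.58, adjusted p = 0.00921), and was not called without heart 31 (adjusted p = 0.116) or heart 15 (adjusted p = 0.106). Cenpa, Cenpf, Mad2l1, Ncapd2, Spc24 and Sgol2 did not pass.

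**Figure D3:**
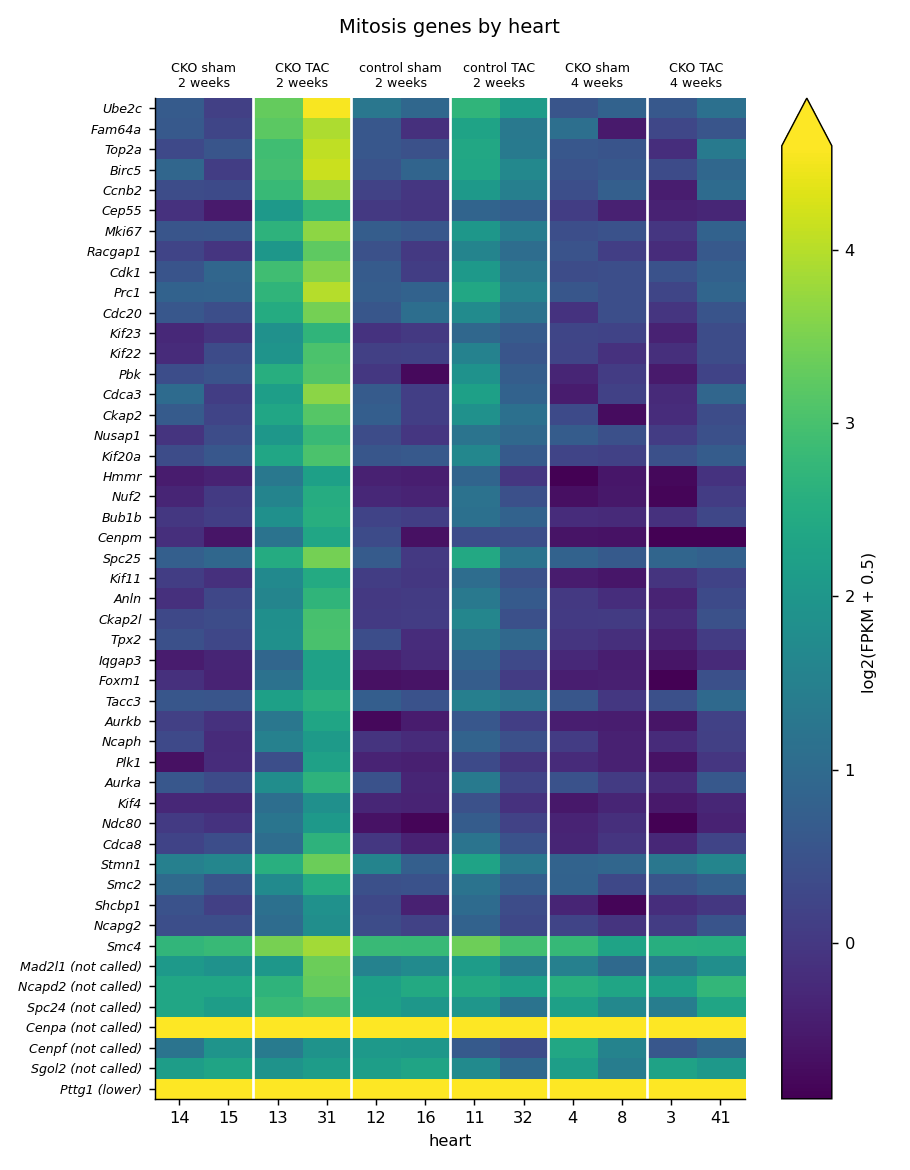
The 49 tested mitosis genes (rows) in 12 hearts (columns, numbered), coloured by log2(FPKM + 0.5) and ordered by the CKO difference at 2 weeks, with genes that were lower or not called marked in their row names and the colour scale capped for Cenpa and Pttg1. Heart 31 exceeds heart 13 in 48 of 49 genes, and CKO hearts at 4 weeks resemble the sham hearts.

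Measured against the mean of the sham hearts, the median mitosis gene was 1.58 higher in heart 13 and 2.64 higher in heart 31 on the log2 scale. Without heart 31 21 members were called higher and none lower, and without heart 15 32 higher and none lower. DNA replication genes followed with smaller differences: 27 of 38 listed were tested, 13 rose and none fell, with a median of 0.80, and heart 31 was above heart 13 in all 27. Of the 26 whose sham hearts had a mean at the 0.5 FPKM filter 12 rose and none fell. Tk1, the thymidine kinase of S phase, was at 5.66 and 9.02 FPKM after TAC and 1.25 and 1.63 FPKM after sham, a log2 difference of 1.99 ± 0.30 (adjusted p = 0.00104). Only 2 replication genes were called without heart 31 and 4 without heart 15, none of them lower. Genes of cell cycle entry and its brakes were less uniform, with 5 of 22 tested higher and 1 lower and a median of 0.08. Of the 21 of these at the 0.5 FPKM filter in sham hearts 4 were higher and 1 lower (all genes: 10.05% higher and 9.21% lower). Lmnb1, lamin B1 of the nuclear envelope, which is abundant in proliferating cells, was at 6.98 and 10.8 FPKM after TAC and 2.00 and 1.44 FPKM after sham, and its log2 difference of 2.06 ± 0.27 (adjusted p = 0.000499) kept its call in each fit without 1 heart.

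The promoters of 4 mitosis genes are printed because the cell cycle homology region (CHR, TTTGAA) together with the CCAAT box is the known docking pair of the DREAM complex and NF-Y, through which late cell cycle genes are switched together. The letters of both elements, on either strand, are in capitals, and each sequence is the 150 bases before the start in gene direction from RefSeq on GRCm38.p6.
Ube2c, chr2:164769779-164769928, plus strand: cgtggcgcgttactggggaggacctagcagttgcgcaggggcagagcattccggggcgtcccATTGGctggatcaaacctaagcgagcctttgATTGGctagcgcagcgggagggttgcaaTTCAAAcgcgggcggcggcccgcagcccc
Cdk1, chr10:69352913-69353062, minus strand: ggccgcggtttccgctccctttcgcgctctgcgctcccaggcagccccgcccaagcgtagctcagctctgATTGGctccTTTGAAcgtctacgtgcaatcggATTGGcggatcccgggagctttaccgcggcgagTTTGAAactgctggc
Top2a, chr11:99024190-99024339, minus strand: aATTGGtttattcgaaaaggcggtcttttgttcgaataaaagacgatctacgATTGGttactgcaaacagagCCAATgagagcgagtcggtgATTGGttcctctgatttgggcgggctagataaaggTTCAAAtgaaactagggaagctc
Cdc20, chr4:118437344-118437493, minus strand: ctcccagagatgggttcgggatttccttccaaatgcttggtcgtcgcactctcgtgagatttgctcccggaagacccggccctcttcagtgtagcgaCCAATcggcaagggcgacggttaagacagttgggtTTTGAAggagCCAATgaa
Each of the 4 held a CHR within 29 bases of the RefSeq start and at least 2 CCAAT boxes. The bases printed for Ube2c, Cdk1 and Cdc20 reach into the GENCODE spans of these genes. From 250 bases before to 50 after the start, 25 of the 40 tested mitosis genes found in the table held both elements (62.5%), against 5.65% of all tested genes found there, and 22 of the 34 that rose (64.7%). The E2F letters TTCCCGC or TTGGCGC stood in 12 of 21 replication genes (57.1%), against 13.9% of all tested genes, and in 6 of the 11 that rose (54.5%).

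Extracellular matrix genes rose in each class listed. Of 27 collagen genes 22 were tested, 19 rose and 1 fell, with a median log2 difference of 1.32. Of the 20 whose sham hearts had a mean at the 0.5 FPKM filter 17 rose and 1 fell, with a median of 1.33. Col1a2, a chain of the main fibrillar collagen of scar, was at 62.4 and 75.9 FPKM in TAC hearts 13 and 31 and at 27.6 and 26.4 FPKM in sham hearts 14 and 15. Col5a2, which sets fibril diameter, was at 22.1 and 26.6 FPKM after TAC and 7.00 and 7.55 FPKM after sham. Col4a1, a basement membrane collagen, was at 192 and 223 FPKM after TAC and 87.3 and 79.5 FPKM after sham. Sham hearts were close to each other in all 3 genes and the TAC hearts lay well above them, with log2 differences of 1.33 ± 0.20 (adjusted p = 0.00112), 1.67 ± 0.14 (adjusted p = 2e-05) and 1.31 ± 0.16 (adjusted p = 0.000398). Without heart 31 or without heart 15 13 collagen genes were called higher and none lower.

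Among matricellular and activated fibroblast genes 13 of 23 tested rose and none fell (all genes: 10.05% higher), with a median of 0.73. Of the 19 whose sham hearts had a mean at the 0.5 FPKM filter 10 rose, and over the 23, 6 were called without heart 31 and 6 without heart 15. Postn (chr3:54361109-54391037, plus strand), periostin, secreted by activated fibroblasts, was at 172 and 225 FPKM after TAC and 20.2 and 18.8 FPKM after sham. Cilp, a matrix protein of cartilage and of strained heart fibroblasts, was at 20.4 and 16.8 FPKM after TAC and 2.34 and 2.70 FPKM after sham. Sparc, a collagen-binding protein, was at 732 and 781 FPKM after TAC and 254 and 243 FPKM after sham. The TAC hearts agreed closely with each other in these genes, as did the sham hearts. The log2 differences were 3.30 ± 0.23 for Postn (adjusted p = 1.4e-05), 2.66 ± 0.39 for Cilp (adjusted p = 0.00088) and 1.61 ± 0.14 for Sparc (adjusted p = 4.5e-05). These are 3 of 8 named genes, out of 198, that passed under all 13 alternative settings; the others are Eln, Aspn, Aplnr, Ces1d and Ano10. Fn1, fibronectin, was at 21.7 and 24.1 FPKM after TAC and 6.43 and 5.21 FPKM after sham (1.89 ± 0.18, adjusted p = 5.1e-05), and Meox1, a transcription factor of activated fibroblasts, at 31.0 and 40.7 FPKM after TAC and 12.1 and 6.78 FPKM after sham (1.91 ± 0.26, adjusted p = 0.00067).

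Elastic fibre and microfibril genes counted 13 rises and 1 fall among 19 tested, with a median of 1.20. Eln (chr5:134702593-134747323, minus strand), tropoelastin, was at 38.7 and 35.3 FPKM in the TAC hearts and 10.8 and 11.5 FPKM in the sham hearts, a log2 difference of 1.68 ± 0.13 (adjusted p = 1.4e-05). Mfap5, a microfibril protein, was at 68.3 and 87.3 FPKM after TAC and 16.0 and 21.5 FPKM after sham (2.03 ± 0.22, adjusted p = 0.00014), and Fbn1, fibrillin, at 27.9 and 36.8 FPKM after TAC and 10.1 and 10.7 FPKM after sham (1.58, adjusted p = 0.000178). Both TAC hearts lay above both sham hearts in each gene. Of this list 7 were called higher without heart 31 and 8 without heart 15. Enzymes that process matrix rose in part, 14 higher and 2 lower of 28 tested (all genes: 10.05% higher and 9.21% lower). Loxl2, a lysyl oxidase that crosslinks collagen and elastin, was at 12.8 and 15.7 FPKM after TAC and 3.34 and 4.81 FPKM after sham (1.70 ± 0.22, adjusted p = 0.000422), with the TAC hearts above the sham hearts. Mmp3, the secreted protease stromelysin, fell and is named for that direction: it was at 1.95 and 2.22 FPKM after TAC and 7.79 and 3.94 FPKM after sham (-1.23 ± 0.27, adjusted p = 0.00775), but was not called without heart 14 (-0.78, adjusted p = 0.0632) or heart 31 (-1.31, adjusted p = 0.0552). Without heart 31 8 enzymes were called higher and none lower, and without heart 15 8 and 1. Among small leucine-rich proteoglycans 4 of 10 rose, led by Aspn, asporin (57.8 and 55.1 FPKM after TAC, 16.1 and 18.0 FPKM after sham, 1.70 ± 0.17, adjusted p = 7.5e-05), and Bgn, biglycan (266 and 327 FPKM after TAC and 120.4 and 103 FPKM after sham, 1.40 ± 0.14, adjusted p = 7.9e-05).

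TGF-beta signalling drives fibroblast activation. Of 21 tested ligands, receptors and targets of the TGF-beta family 10 rose and none fell (all genes: 10.05% higher), with a median of 0.47, but 3 were called without heart 31 and 3 without heart 15. Among the 20 whose sham hearts had a mean at the 0.5 FPKM filter 9 rose and none fell, with a median of 0.42. Tgfb3 was at 11.7 and 11.4 FPKM after TAC and 6.77 and 5.92 FPKM after sham, and Bmp4 at 6.02 and 5.80 FPKM after TAC and 1.85 and 2.12 FPKM after sham. Their TAC hearts were nearly equal and above both sham hearts, with log2 differences of 0.82 ± 0.12 (adjusted p = 0.00108) and 1.37 ± 0.24 (adjusted p = 0.00216) that held in each fit without 1 heart. Tgfb1 was at 14.9 and 21.9 FPKM after TAC and 9.65 and 7.73 FPKM after sham (1.02, adjusted p = 0.0038), and was not called without heart 31 (0.75, adjusted p = 0.0702) or heart 15 (0.87, adjusted p = 0.0572). Thbs1, thrombospondin, an activator of latent TGF-beta, was at 7.52 and 13.6 FPKM after TAC and 51.9 and 2.97 FPKM after sham, where heart 14 stood far above the other 3 (adjusted p = 0.834).

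Markers of cell types other than muscle cells moved alongside. In whole-heart RNA a larger number of cells of a type and more RNA per cell cannot be told apart, and the part of cell composition in these results was not tested. Of 20 fibroblast markers 19 were tested, 10 rose and 2 fell (all genes: 10.05% higher and 9.21% lower). Yet their summed level overlapped between TAC hearts (1463 and 1696 FPKM) and sham hearts (1626 and 1468 FPKM). Pi16, a marker of adventitial fibroblasts, was at 77.7 and 86.4 FPKM after TAC and 39.1 and 31.5 FPKM after sham (1.21 ± 0.15, adjusted p = 0.000398). Of 17 smooth muscle and pericyte markers 4 rose and 1 fell, with a median of -0.04. The log2 differences of the 17 ranged from -0.79 to 0.76, and 8 of them were positive. The contractile genes Acta2 (log2 difference -0.73, adjusted p = 0.47), Tagln (-0.19, adjusted p = 0.782), Cnn1 (-0.04, adjusted p = 0.963) and Myh11 (-0.62, adjusted p = 0.329) did not pass, and so none of them is among the 4 that rose. The summed level of this list was 1715 and 1621 FPKM in TAC and 1597 and 1662 FPKM in sham hearts.

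Of 24 endothelial markers 8 rose and 1 fell, with summed levels of 4988 and 5261 FPKM in TAC hearts and 4507 and 3701 FPKM in sham hearts, and 1 was called higher both without heart 31 and without heart 15. Aplnr, the apelin receptor of sprouting vessels, was at 48.7 and 54.2 FPKM after TAC and 14.3 and 15.9 FPKM after sham, a log2 difference of 1.74 ± 0.29 (adjusted p = 0.00162) that passed under each alternative setting. Of 30 macrophage markers 27 were tested, 9 rose and none fell (all genes: 10.05% higher and 9.21% lower). The macrophage sums were 1127 and 1333 FPKM in TAC and 883 and 645 FPKM in sham hearts, and heart 31 was above heart 13 in 24 of the 27. Trem2, a receptor of lipid-handling macrophages, was at 7.33 and 7.51 FPKM after TAC and 2.25 and 3.31 FPKM after sham (1.29, adjusted p = 0.0101), but missed without heart 31 (adjusted p = 0.0832) and without heart 14 (adjusted p = 0.0639). Without heart 31 1 macrophage marker was called higher, and without heart 15 also 1. No neutrophil marker passed among 7 tested (16 listed) and no T or NK cell marker among 4 (19 listed). Red cell markers were highest in TAC heart 13, with a sum of 2885 FPKM against 1156 to 1404 FPKM in the other 3 hearts, and none of 5 tested passed. Members of these lists that were not tested lay under the level filter or were not in the expression tables.

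**Figure D4:**
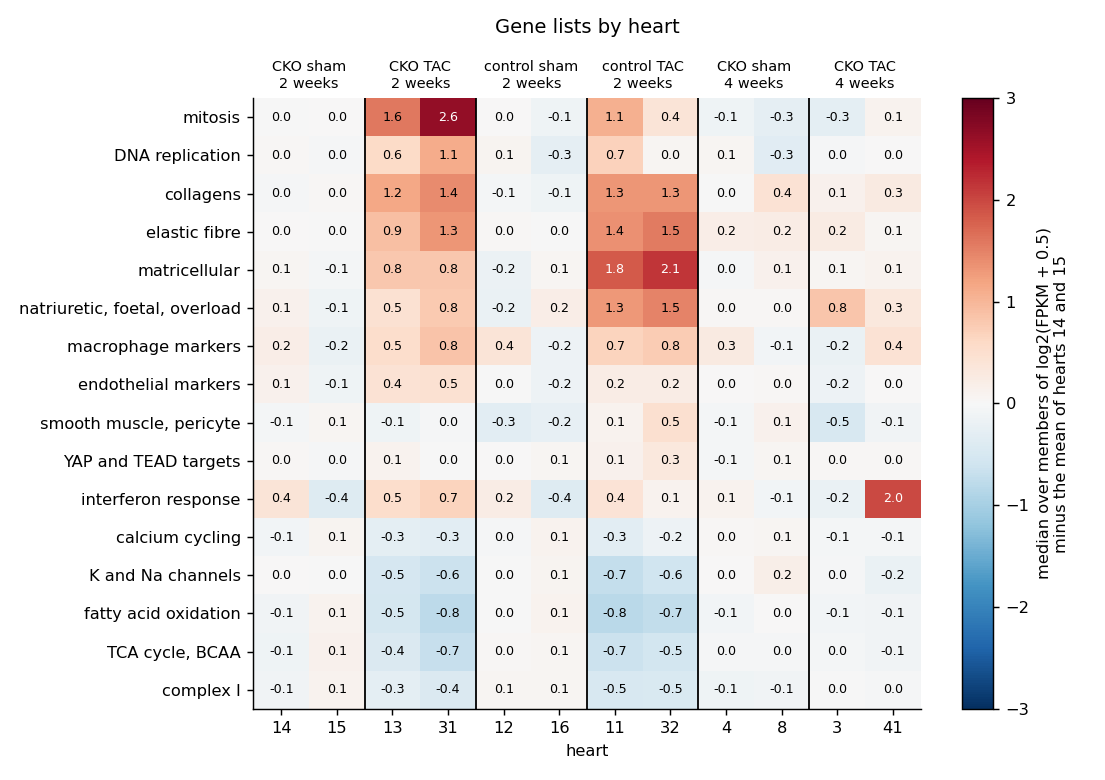
For 16 gene lists (rows) and 12 hearts (columns, numbered), the median over a list's tested members of log2(FPKM + 0.5) minus the mean of CKO sham hearts 14 and 15. Mitosis genes reach 1.58 in heart 13 and 2.64 in heart 31, and fatty acid genes are lowest in the TAC hearts of 2 weeks.

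Genes of fatty acid use, the TCA cycle, the respiratory chain and glycolysis fell in part or nearly throughout, while ketone and one-carbon metabolism genes were mixed (15 tested, 2 higher and 4 lower, median -0.04). Over all genes 10.05% rose and 9.21% fell. Of 44 genes of fatty acid uptake and oxidation 43 were tested, 37 fell and none rose (all genes: 9.21% lower), with a median log2 difference of -0.66. Slc27a1, a fatty acid transporter of the plasma membrane, was at 28.6 and 25.2 FPKM in TAC hearts 13 and 31 and at 56.9 and 58.4 FPKM in sham hearts 14 and 15. Ech1, an isomerase for unsaturated fatty acids, was at 1290.0 and 1186 FPKM after TAC and 2284 and 2739 FPKM after sham, and Hadha, the alpha chain of the mitochondrial trifunctional protein, at 379 and 299 FPKM after TAC and 566 and 712 FPKM after sham. All TAC values lay under all sham values, with heart 31 the lowest. The log2 differences were -1.09 ± 0.11 (adjusted p = 8.9e-05), -1.02 ± 0.11 (adjusted p = 0.000155) and -0.92 ± 0.13 (adjusted p = 0.000681) in that order. Without heart 31 18 members were called lower and without heart 15 20, none higher in either.

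Of 33 genes of the TCA cycle and branched-chain amino acid breakdown 32 fell, with a median of -0.58. Bckdha, a subunit of the branched-chain ketoacid dehydrogenase, was at 154 and 131 FPKM after TAC and 267 and 296 FPKM after sham (-0.98 ± 0.10, adjusted p = 7.1e-05), and Sdha, succinate dehydrogenase, at 601 and 501 FPKM after TAC and 860.5 and 1047 FPKM after sham (-0.79 ± 0.12, adjusted p = 0.00115). In both genes the TAC hearts lay under the sham hearts. Without heart 31 9 of this list were called lower and without heart 15 10. Respiratory chain genes fell less: 25 of 37 for complex I (median -0.35) and 27 of 42 for complexes II to V (median -0.38, 1 higher). These shifts were sensitive to scaling, since quantile normalization left 8 and 10 lower with medians of -0.15 and -0.13, and fits without heart 31 left 3 and 3.

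No glycolysis or glucose uptake gene rose: 14 of 31 tested fell and the median was -0.32, with 5 called lower without heart 31 and 5 without heart 15. Pfkfb1, which makes and removes the phosphofructokinase activator fructose bisphosphate, was at 3.63 and 3.16 FPKM after TAC and 12.4 and 16.7 FPKM after sham, a log2 difference of -1.93 ± 0.16 (adjusted p = 1.7e-05). Slc2a4, the insulin-regulated glucose transporter GLUT4, was at 129.6 and 109 FPKM after TAC and 185 and 187 FPKM after sham (-0.64 ± 0.09, adjusted p = 0.00088). Sham hearts were higher than TAC hearts in both genes. Among nuclear receptors and cofactors that set these programs, 10 of 27 tested fell and 1 rose (all genes: 9.21% lower and 10.05% higher). Ppara, the fatty acid receptor, was at 8.77 and 8.04 FPKM after TAC and 14.3 and 18.2 FPKM after sham (-0.91 ± 0.17, adjusted p = 0.00329; without heart 15 -0.74, adjusted p = 0.054). The thyroid hormone receptor Thrb was at 2.87 and 2.22 FPKM after TAC and 4.51 and 5.24 FPKM after sham (-0.82 ± 0.13, adjusted p = 0.00152). Dio2, the deiodinase that makes active thyroid hormone, was the rise, at 2.32 and 1.69 FPKM after TAC and 0.494 and 0.390 FPKM after sham (1.40 ± 0.23, adjusted p = 0.00156). The mean of its sham hearts was under the 0.5 FPKM filter, so it passed through the hearts where it was high, and no member at or above the filter in sham hearts rose. Of this list 3 were called lower without heart 31 and 1 without heart 15, with Dio2 higher in both.

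Muscle genes of excitation and contraction fell in part. Of 20 tested calcium cycling genes 6 fell and none rose, with a median of -0.31 (all genes: 10.05% higher and 9.21% lower). Atp2a2, the calcium pump SERCA2 of the sarcoplasmic reticulum, was at 2211 and 1855 FPKM after TAC and 3460.0 and 3869.5 FPKM after sham. Hrc, the histidine-rich calcium-binding protein of the same store, was at 436 and 371 FPKM after TAC and 737 and 945 FPKM after sham. The TAC hearts lay under the sham hearts without overlap, with log2 differences of -0.85 ± 0.10 (adjusted p = 0.00024; with quantile normalization -0.55, adjusted p = 0.00079) and -1.05 ± 0.15 (adjusted p = 0.00068). Of 23 potassium and sodium channel genes 13 fell and none rose (median -0.60). Kcnj5 and Kcnj3, which form the acetylcholine-gated potassium channel, fell: Kcnj5 was at 16.0 and 12.4 FPKM after TAC and 30.0 and 33.4 FPKM after sham, and Kcnj3 at 8.12 and 8.44 FPKM after TAC and 20.3 and 20.8 FPKM after sham. Their log2 differences were -1.14 ± 0.12 (adjusted p = 8.2e-05) and -1.26 ± 0.22 (adjusted p = 0.0021). Kcnj3 is also on the atrial marker list, and the part of atrial tissue in its fall was not tested.

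Adult sarcomere genes counted 8 falls and no rise among 24 tested, with a median of -0.30. After quantile normalization 5 were called lower and 2 higher, with a median of -0.05. Tnni3, cardiac troponin I, was at 7138 and 6435 FPKM after TAC and 9958 and 11929 FPKM after sham (-0.69 ± 0.12, adjusted p = 0.00196; with quantile normalization -0.41, adjusted p = 0.00259). Myh6, the fast myosin heavy chain of the adult mouse ventricle, was at 3099.8 and 2323 FPKM after TAC and 4450.1 and 4925 FPKM after sham (-0.80, adjusted p = 0.00664) and was not called without heart 31 (-0.59, adjusted p = 0.102) or heart 15 (-0.73, adjusted p = 0.073). The sarcomere list kept 1 call without heart 31 and 1 without heart 15, the calcium list 2 and 2, and the channel list 3 and 6, all lower. A pair of ribosomal protein paralogs moved in opposite directions: Rpl3l, the form of striated muscle, was at 119.6 and 115 FPKM after TAC and 238 and 246 FPKM after sham, while Rpl3, the general form, was at 28.1 and 28.2 FPKM after TAC and 16.5 and 14.4 FPKM after sham. Their log2 differences were -1.05 ± 0.19 (adjusted p = 0.00307) and 0.85 ± 0.16 (adjusted p = 0.00332), and the TAC hearts agreed closely with each other in both. Reads shared between such paralogs could not be checked in FPKM.

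Of 43 listed Wnt ligands and receptors 28 were tested, 3 rose and none fell (all genes: 10.05% higher and 9.21% lower), with a median of 0.11. Fzd2, a Frizzled receptor that binds Wnt5a, was at 2.55 and 1.96 FPKM in the TAC hearts and 0.849 and 0.937 FPKM in the sham hearts (0.98 ± 0.21, adjusted p = 0.00703). Frzb, a secreted Wnt antagonist, was at 5.50 and 8.27 FPKM after TAC and 2.04 and 1.93 FPKM after sham (1.54 ± 0.23, adjusted p = 0.00104). Both lay above the sham hearts in both TAC hearts and kept their calls whichever heart was left out. Fzd2 did not pass (0.93, adjusted p = 0.0677) when hearts 11, 14, 16, 21 and 24 of the series, in which Myl7 reached 10 FPKM, were left out together. The ligands Wnt5b (log2 difference 0.64, adjusted p = 0.0908) and Wnt11 (-0.43, adjusted p = 0.261) did not pass, nor did Axin2, a direct target of beta-catenin (0.18, adjusted p = 0.606). Of 27 tested Hippo components 8 rose and none fell, with a median of 0.24, but 1 was called without heart 31 and none without heart 15. Wwtr1, which encodes TAZ, was at 31.6 and 32.0 FPKM after TAC and 23.2 and 20.2 FPKM after sham (0.54 ± 0.11, adjusted p = 0.00434; without heart 15 0.44, adjusted p = 0.0644). Yap1 was at 27.6 and 25.3 FPKM after TAC and 32.3 and 33.5 FPKM after sham, lower in both TAC hearts, and did not pass (-0.31, adjusted p = 0.0516).

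Genes known as YAP and TEAD targets did not move as one group. Of 39 listed 34 were tested, 7 rose and 2 fell, with a median of -0.01, against 10.05% and 9.21% of all genes. The risers Ankrd1, Birc5, Cdc20 and Aurkb are also overload or mitosis genes of the lists above; of these Aurkb was not called without heart 31 (1.26, adjusted p = 0.0684). Ctgf, connective tissue growth factor and a standard target, was at 107 and 149.9 FPKM after TAC and 45.7 and 23.1 FPKM after sham, a rise of 1.95 ± 0.40 (adjusted p = 0.00544) that was not called without heart 31 (1.70, adjusted p = 0.0763) or heart 15 (1.46, adjusted p = 0.0861). Cyr61, its close relative, was at 30.3 and 41.8 FPKM after TAC and 79.2 and 25.1 FPKM after sham; heart 14 was the highest, the groups overlapped and the difference of -0.33 did not pass (adjusted p = 0.665). Without heart 31 3 targets were called higher and none lower, and without heart 15 4 and 1. MCAT letters stood in the window around the start of 9 of 24 targets found in the promoter table (37.5%), against 14.6% of tested genes, and of 2 of the 5 found there that rose (40.0%).

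The response was next set beside that of control hearts at 2 weeks. The groups share no heart, but both responses use the same estimate of spread for each gene, so their calls are not independent. TAC against sham called 1386 genes higher (11.01%) and 1612 lower (12.8%) in controls, 23.8% of those tested. Of the CKO rises 696 were also called higher in controls (55.02% of CKO rises, 50.2% of control rises), and of the falls 863 were also called lower (74.5% and 53.5%), with 1 gene called in opposite directions. The test of the difference itself called 2 genes of 12589 (0.0159%), both with a lower response in the CKO (1 to 6 over the alternative settings). At an unadjusted p under 0.05 by limma it counted 997, where 629 would be expected by chance. Clu (chr14:65968483-65981547, plus strand), clusterin, a secreted chaperone, was at 323 and 270.3 FPKM in CKO TAC and 371 and 383 FPKM in CKO sham hearts, against 965 and 984 FPKM after TAC and 416 and 404 FPKM after sham in controls. Des (chr1:75360329-75368579, plus strand), desmin, the intermediate filament of muscle, was at 1133 and 1019.9 FPKM after TAC and 1068 and 1037 FPKM after sham in the CKO and at 1789 and 2018 FPKM after TAC and 975 and 1041 FPKM after sham in controls. In both genes the control TAC hearts stood far above the other 6 hearts. For Des those 6 were close to each other, and for Clu both CKO TAC hearts lay under all 4 sham hearts. The CKO response minus the control response was -1.60 ± 0.17 for Clu (adjusted p = 0.00276), a call that held with each heart left out, and -0.88 ± 0.12 for Des (adjusted p = 0.0199), which was lost without heart 12, 14, 16, 31 or 32 (adjusted p of 0.0633 to 0.216). With the hearts whose Myl7 reached 10 FPKM left out, which here are 11, 14 and 16, neither passed (Clu -1.62, adjusted p = 0.13; Des -0.9969, adjusted p = 0.14). Clu is also on the atrial marker list. Myl7 was 72.6 and 1.66 FPKM in control TAC hearts 11 and 32 and 0.736 and 32.2 FPKM in control sham hearts 12 and 16. The part of atrial tissue in the Clu difference was not tested.

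Other genes are given with both responses side by side. Ankrd1 differed by 2.05 after TAC in the CKO and by 2.99 in controls (difference -0.94 ± 0.39, adjusted p = 0.584), and Nppa by 2.08 and 5.89 (difference -3.81 ± 0.77, adjusted p = 0.197). Xirp2 differed by 0.98 and 2.59 (difference -1.61 ± 0.25, adjusted p = 0.0515), and Eln by 1.68 and 2.67 (difference -0.98 ± 0.18, adjusted p = 0.113). All 4 had the larger value in controls, without passing the test of the difference. Myl7 was 372 FPKM in CKO sham heart 14, 72.6 FPKM in control TAC heart 11 and 32.2 FPKM in control sham heart 16. The part of atrial tissue in the Nppa difference was not tested. Mitosis genes had the larger value in the CKO: Ube2c 3.52 against 1.30 (difference 2.22 ± 0.60, adjusted p = 0.308), Cep55 2.71 against 0.82 (difference 1.89 ± 0.35, adjusted p = 0.113) and Lmnb1 2.06 against -0.03 (difference 2.09 ± 0.38, adjusted p = 0.113), none passing. Over lists, mitosis genes counted 42 rises and a median of 2.095 in the CKO and 14 rises and 0.85 in controls, overload genes 11 and 0.62 against 16 and 1.79, matricellular genes 13 and 0.73 against 18 and 2.18, and collagens 19 and 1.32 against 21 and 1.43. Members silent in sham hearts could enter these counts through a high TAC group. Among the 33 mitosis genes whose sham hearts had a mean at the 0.5 FPKM filter in both genotypes, 26 rose with a median of 2.12 in the CKO and 10 rose with 0.89 in controls. For the 19 such matricellular genes the counts were 10 with 0.71 and 14 with 2.18. Smooth muscle markers had a median of -0.04 in the CKO and 0.78 in controls, with 4 and 10 rises. Fatty acid genes fell alike in number, 37 and 38, with medians of -0.66 and -0.86. With 2 hearts a group these list values carry no test, and over all lists Clu and Des were the only members past the test of the difference.

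**Figure D5:**
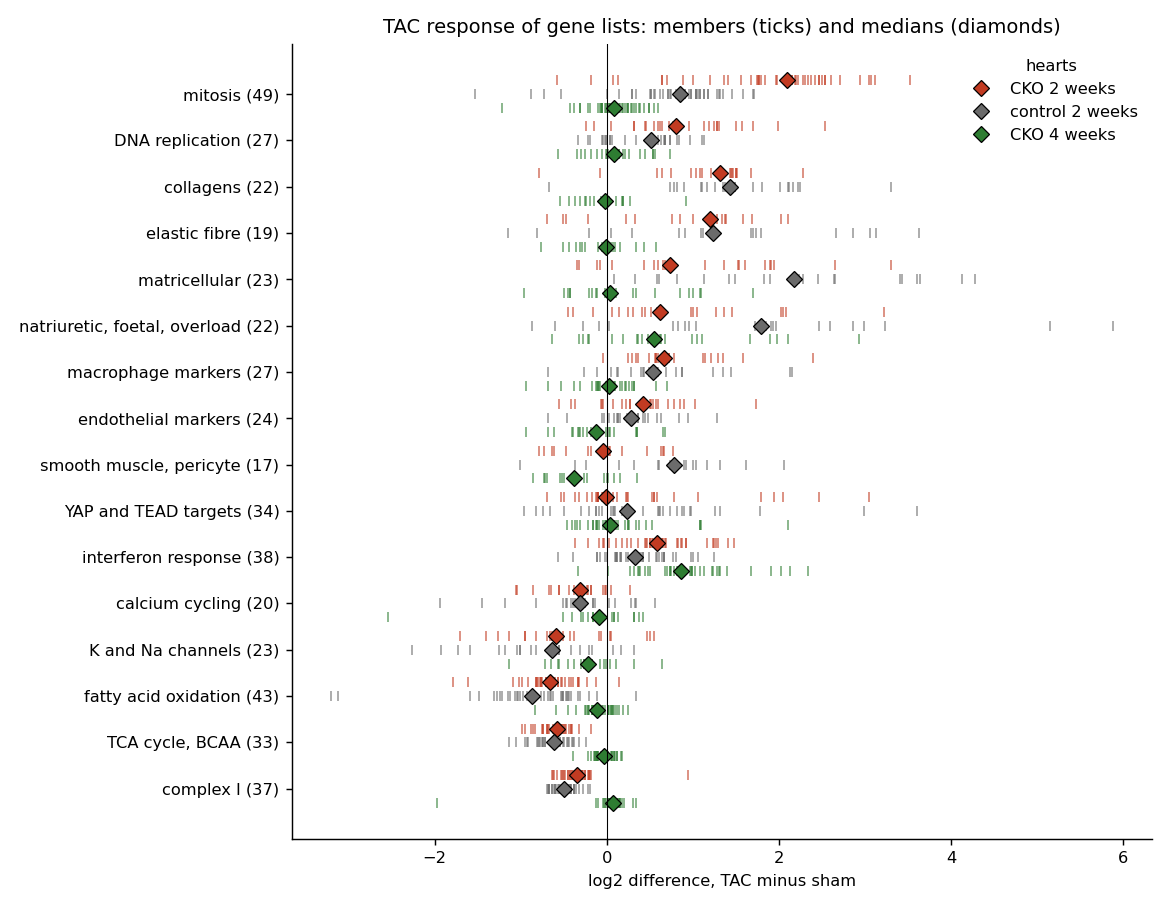
TAC against sham in CKO hearts at 2 weeks, control hearts at 2 weeks and CKO hearts at 4 weeks for 16 gene lists, with the log2 difference on the horizontal axis; ticks are tested members and diamonds list medians. Mitosis genes have a median of 2.095, 0.85 and 0.08 in that order and overload genes of 0.62, 1.79 and 0.55.

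Against the CKO response at 4 weeks, the 2-week response was the larger in either direction. At 4 weeks 33 genes were called (0.262%), 19 higher (0.151%) and 14 lower (0.111%), of which 10 rises and 3 falls had also been called at 2 weeks; the median 4-week difference was -0.02 over the 2-week rises and -0.03 over the 2-week falls. The difference between the responses was called for 823 genes (6.54%), 482 with the higher value at 2 weeks (3.83%) and 341 with the lower (2.71%), but for 11 genes in a fit of the 8 hearts alone. Postn, at 172 and 225 FPKM after TAC and 20.2 and 18.8 FPKM after sham at 2 weeks, was at 44.6 and 23.5 FPKM after TAC and 21.5 and 22.3 FPKM after sham at 4 weeks. Eln was at 10.6 and 13.5 FPKM after TAC and 14.7 and 16.4 FPKM after sham at 4 weeks, where its 2-week TAC hearts had held 38.7 and 35.3 FPKM. C1qtnf6, a secreted protein of the C1q and TNF family, was at 23.7 and 19.4 FPKM after TAC and 4.69 and 4.50 FPKM after sham at 2 weeks and at 5.41 and 5.98 FPKM after TAC and 6.61 and 6.37 FPKM after sham at 4 weeks. In these genes the 2 TAC hearts of 2 weeks stood alone above the other 6 hearts. The 2-week response minus that at 4 weeks was 2.75 ± 0.33 for Postn (adjusted p = 0.00202), 2.04 ± 0.18 for Eln (adjusted p = 0.000299) and 2.28 ± 0.24 for C1qtnf6 (adjusted p = 0.000695). In the fit of the 8 hearts alone Eln and C1qtnf6 passed and Postn did not (adjusted p = 0.0616).

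By list, 27 of 49 tested mitosis genes had a higher response at 2 than at 4 weeks and 1 a lower (all genes: 3.83% higher and 2.71% lower). Of the tested collagens 13 of 22 had a higher response at 2 weeks, of elastic fibre genes 8 of 19 and of matricellular genes 7 of 23, with none lower. Cep55 was at 0.272 and 0.312 FPKM after TAC and 0.578 and 0.261 FPKM after sham at 4 weeks, with both means under the filter, and its response at 2 weeks was higher by 2.91 ± 0.35 (adjusted p = 0.00202). In the lower direction stood 16 of 43 tested fatty acid genes, 14 of 33 of the TCA and branched-chain list, and 12 of 37 of complex I. Bckdha had a lower response at 2 weeks, with a difference of -0.95 ± 0.14 (adjusted p = 0.00568), and Ldhd, a D-lactate dehydrogenase of mitochondria, was at 16.7 and 16.3 FPKM after TAC and 32.3 and 34.0 FPKM after sham at 2 weeks and at 31.6 and 29.7 FPKM after TAC and 32.8 and 32.5 FPKM after sham at 4 weeks (-0.89 ± 0.14, adjusted p = 0.0074). Cep55, Bckdha and Ldhd did not pass in the fit of the 8 hearts alone (adjusted p = 0.0616, 0.0745 and 0.0616). Overload genes had medians of 0.62 and 0.55 at 2 and 4 weeks, while interferon response genes (0.58 and 0.86), antigen presentation genes (0.53 and 0.92) and immediate early genes (0.05 and 0.59) had the higher median at 4 weeks. No member of these lists was called higher at 4 weeks, and TAC hearts 3 and 41 differed widely there. Measured against CKO sham hearts 14 and 15, the interferon median was -0.19 in heart 3 and 1.98 in heart 41. In the same order it was -0.39 and 2.16 for antigen presentation genes and -0.05 and 0.65 for immediate early genes. Ankrd1 was at 2518 and 2228 FPKM after TAC and 649 and 468 FPKM after sham at 4 weeks and rose by 2.103 ± 0.27 there (adjusted p = 0.0142), and Xirp2 by 1.05 ± 0.18 (adjusted p = 0.037). These are 2 of the 10 genes called higher at both times, and the difference between their 2-week and 4-week responses did not pass (Ankrd1 -0.05 ± 0.39, adjusted p = 0.947; Xirp2 -0.08 ± 0.25, adjusted p = 0.877).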

How the data were processed

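Per the labels' protocols, RNA came from the miRNeasy Mini kit and libraries from the TruSeq Stranded mRNA kit. The tools were TopHat2 2.1.1, Bowtie2 and Cuffdiff 2.2.1 and the genome build was mm10, per the submitters' processing notes; their gene annotation is not stated there. The deposited values are FPKM per gene, 1 table for each of 20 hearts, with no fragment counts. They summed to 579596 to 713671 per heart over the 20 hearts. The sums were 626492 and 579596 in TAC hearts 13 and 31 and 657836 and 713671 in sham hearts 14 and 15. Both ends of the range were thus hearts of the comparison, and both TAC sums lay under both sham sums. The part of these sums in the results was not tested. In the 4 hearts the 10 most abundant genes took 21.3% to 24.5%, and 14860 to 15277 genes were above 0. Absolute depth is unknown; relative depth came from the steps between low values, of which 97.7% were whole multiples of 1 step within 5% over 1401 genes. Across genes replicates correlated at r = 0.977 (CKO TAC) and 0.970 (CKO sham).

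Values were analysed as log2(FPKM + 0.5) for genes whose mean over 20 hearts reached 0.5 FPKM. One limma model (3.58.1, R 4.3.3, prior with trend) had a mean for each of 10 groups, 10 residual degrees of freedom and contrasts for the comparison and for its differences from the control response and from the 4-week response, with Benjamini-Hochberg adjustment over 12589 genes and a threshold of 0.05. A fold change on this scale understates that of low genes. Log2 differences are given with the SE of the model and hearts by their FPKM. The fit was also run on simulated data with independent normal spread, in which 200 of 12589 genes were changed. For the main comparison it recovered 84% of 2-fold and 99% of 4-fold changes, with 4 false calls among 187. Far fewer genes were changed there than the 19.3% called here, so it gives no rate of false calls for these data.

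The members and the 56 gene lists were chosen with earlier results of these data known, so their counts are descriptions beside those of all genes. Named genes are part of those given by a rule: the 15 largest rises and 15 largest falls among called genes whose groups did not overlap and whose mean reached 1 FPKM, up to 4 called members of each list by smallest p, the 8 smallest p in each direction for a difference of responses, Wnt5a, Esr1, and defining genes of a list; clone-named and predicted genes were passed over. A few genes were picked for their direction, as stated beside them. Alternatives varied the pseudocount (0.1 or 1 FPKM), the level filter (none or 3 FPKM), the scaling (median-ratio or quantile), the hearts that give the spread (those compared alone), the prior (no trend) and the hearts (each left out in turn). Added after the data were seen was a fit without the hearts whose Myl7 reached 10 FPKM. Where 1 heart is left out, its partner stands alone and is taken to vary as hearts of the remaining groups do. Gene positions are from GENCODE M21, and promoters from RefSeq on GRCm38.p6, which held 9922 of the tested genes. Figures were drawn with Python 3.11.15 and matplotlib 3.10.9.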

Additional observations from a re-analysis of the deposited data

Results flagged for a closer look

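Genes are listed here because their response to TAC in CKO hearts at 2 weeks differed, by limma's test of the difference, from that of control hearts or of CKO hearts at 4 weeks. Against control hearts, the response was lower for Clu, with a difference of -1.60 on the log2 scale, and for Des, with -0.88.

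Against 4 weeks, the 8 genes with the smallest p for a higher response at 2 weeks included Eln by 2.04, Postn by 2.75, Fn1 by 2.31, Sparc by 1.62, C1qtnf6 by 2.28, Ppic, a cyclophilin of the secretory pathway, by 1.35, and Chst1, a sulfotransferase for keratan sulfate, by 2.01. The eighth was the abscission gene Cep55, higher by 2.91. Ppic stood at 72.7 and 73.4 FPKM after TAC and 30.0 and 29.5 FPKM after sham at 2 weeks, and at 26.0 and 28.1 FPKM after TAC and 29.6 and 27.3 FPKM after sham at 4 weeks, so that the TAC hearts of 2 weeks lay apart from the other 6. Chst1 was at 3.52 and 3.59 FPKM after TAC and 1.28 and 1.24 FPKM after sham at 2 weeks and at 0.839 and 0.659 FPKM after TAC and 1.58 and 1.76 FPKM after sham at 4 weeks, where the TAC hearts were the lower ones without passing the test (adjusted p = 0.0883).

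The 8 genes with the smallest p for a lower response at 2 weeks, on the log2 scale, were Fxyd1, phospholemman, the regulator of the sodium pump, with -0.73, Sgca, alpha-sarcoglycan, with -0.99, Cox6a2, the muscle form of a cytochrome oxidase subunit, with -0.88, Bckdha with -0.95, Ldhd with -0.89, Pxmp2, a peroxisomal membrane channel, with -1.17, Las1l, which acts in ribosome maturation, with -0.81, and H2-Ke6, an estradiol dehydrogenase of mitochondria, with -0.79. Fxyd1 moved in opposite directions, from 953 and 1017 FPKM after sham to 775 and 783 FPKM after TAC at 2 weeks and from 799.7 and 814 to 1036 and 1078 FPKM at 4 weeks (adjusted p = 0.0438 at 4 weeks). The differences of Cox6a2 and Fxyd1 did not pass after quantile normalization, and those of the other 14 did; all 16 held with each heart left out. In a fit of the 8 hearts compared, Eln, Ppic, C1qtnf6, Fn1, Sparc and Chst1 passed and the other 10 did not (adjusted p of 0.0616 for Postn, Cep55 and Ldhd to 0.0882 for Cox6a2).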

How the results depend on the processing

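No paired analysis was possible because the groups compared share no replicate number. For TAC against sham in CKO hearts at 2 weeks, other pseudocounts, filters, scalings and prior gave 2067 to 2469 calls, and leaving out the hearts whose Myl7 reached 10 FPKM gave 1636. A fit of only the groups compared gave 15 (12 higher, 3 lower), and leaving out 1 heart gave 465 to 2208 (256 to 1124 higher, 209 to 1112 lower). For the difference between genotypes, with 2 calls, both lower, the counts were 4 with a pseudocount of 0.1 FPKM, 6 with 1 FPKM, 6 without a filter, 5 with a filter of 3 FPKM, 5 after quantile normalization and 5 without the Myl7 hearts, all lower; 6 with only the groups compared (3 higher, 3 lower); 1, lower, with a prior without trend; and 1 to 5 with 1 heart left out (0 to 1 higher, 1 to 5 lower). For the difference between times, with 823 calls, quantile normalization left 175 lower calls, only the groups compared 11 (9 higher, 2 lower), the fit without the Myl7 hearts 229 (139 higher, 90 lower), and leaving out 1 heart 55 to 1113 (40 to 589 higher, 15 to 524 lower). The Wnt5a difference between genotypes was -0.058 to 0.29 with 1 heart left out, the lowest without heart 13, and -0.039 without the Myl7 hearts; that between times was -0.17 to 0.45 with 1 heart left out, the lowest without heart 41 and -0.037 without heart 13, and -0.10 after quantile normalization, none passing. Of 198 genes followed in the main comparison, none changed sign; 93 were not called without heart 31, 80 without heart 15, 22 without heart 14 and 18 without heart 13, 188 in a fit of only the groups compared, and 11 after quantile normalization, where Wnt5a was called. The cause of these changes was not tested, except that fits of fewer hearts have fewer degrees of freedom by construction. At least 188 of the 198 genes were followed with a call in the main fit. A change of sign was therefore unlikely among them from the start, and its absence is no measure of stability. With 2 hearts a group, the absolute depth unknown and mitosis genes near 1 FPKM in sham hearts, precision is limited.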

Other observations

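Chemokines and cytokines counted 2 rises and 2 falls among 27 tested, with a median of 0.22 (all genes: 10.05% higher and 9.21% lower). Among the 25 whose sham hearts had a mean at the 0.5 FPKM filter there were 1 rise and 2 falls. Genes for secreted signals with low p that fell are given first. Il15, the interleukin that supports natural killer and memory T cells and is made in muscle, was at 16.1 and 14.6 FPKM in TAC hearts 13 and 31 and at 38.4 and 42.1 FPKM in sham hearts 14 and 15 (log2 difference -1.36 ± 0.16, limma adjusted p = 0.000255). Angpt1, the ligand that steadies vessels through Tie2, was at 4.94 and 5.86 FPKM after TAC and 14.9 and 19.2 FPKM after sham (-1.57 ± 0.20, adjusted p = 0.000499), and Penk, the precursor of enkephalin peptides, at 0.496 and 1.51 FPKM after TAC and 6.57 and 8.59 FPKM after sham (-2.50 ± 0.34, adjusted p = 0.000652). Cxcl14, a chemokine, was at 6.93 and 4.57 FPKM after TAC and 18.3 and 16.5 FPKM after sham (-1.54 ± 0.21, adjusted p = 0.00067). In all 4 genes both TAC hearts lay under both sham hearts, and no heart left out ended a call. Control hearts at 2 weeks had values of -1.72 for Il15, -1.87 for Angpt1, -2.73 for Penk and 0.07 for Cxcl14; for Cxcl14 the difference between the genotypes was -1.61 ± 0.30 (adjusted p = 0.113). At 4 weeks Cxcl14 was at 8.15 and 13.0 FPKM after TAC and 25.7 and 22.0 FPKM after sham in CKO hearts (-1.17, adjusted p = 0.0438), the lower hearts again being the TAC hearts. Among 38 growth factors and hormones tested 9 rose and 5 fell (all genes: 10.05% higher and 9.21% lower). Of the rises Igf1, insulin-like growth factor, was at 6.81 and 8.73 FPKM after TAC and 3.46 and 4.17 FPKM after sham (0.93 ± 0.15, adjusted p = 0.00151), and Igfbp7, a binding protein of its family, at 453 and 477 FPKM after TAC and 213 and 208 FPKM after sham (1.14 ± 0.13, adjusted p = 0.000189).

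Of 25 cell death and p53 target genes 8 rose and 2 fell (all genes: 10.05% higher and 9.21% lower). Phlda3, a p53 target that restrains AKT, was at 16.4 and 21.2 FPKM after TAC and 8.17 and 8.91 FPKM after sham (1.08 ± 0.19, adjusted p = 0.00242). Its TAC hearts lay above its sham hearts, though 2 members of the list were called without heart 31 and 2 without heart 15. Of 24 cytosolic and mitochondrial chaperone genes 7 fell and none rose, with 1 called without heart 31 and 1 without heart 15. Hspd1, the mitochondrial chaperonin, was at 75.7 and 70.9 FPKM after TAC and 115 and 132 FPKM after sham (-0.75 ± 0.12, adjusted p = 0.00158). Of 24 cytoskeleton genes 13 rose and none fell, and of them Vim, vimentin, was at 343 and 479.9 FPKM after TAC and 191 and 165 FPKM after sham (1.19 ± 0.16, adjusted p = 0.00067), with 4 members called without heart 31 and 6 without heart 15. Ano10, a member of the anoctamin family, was at 13.8 and 14.2 FPKM after TAC and 47.1 and 40.7 FPKM after sham and fell, with a log2 difference of -1.61 ± 0.15 (adjusted p = 4.5e-05), under each setting tried.

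None of 38 interferon response genes and none of 21 antigen presentation genes passed limma's test, although their medians were 0.58 and 0.53. Isg15, an interferon-induced modifier, was at 30.7 and 33.5 FPKM after TAC and 21.4 and 6.38 FPKM after sham, heart 15 being the low one (adjusted p = 0.0796), and the interferon median was 0.22 without heart 15 and 0.89 without heart 14. Of 26 immediate early genes 1 rose and none fell (all genes: 10.05% higher and 9.21% lower). Their median changed sign with the sham heart left out, being 0.51 without heart 14 and -0.44 without heart 15.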
